A study of Mus musculus with 6 samples.

Results

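The chemokine receptors *Ccr2*, *Ccr4*, *Ccr6*, *Ccr7*, *Ccr8*, *Cxcr3*, *Cxcr4*, *Cxcr5* and *Cxcr6* were followed in Th17 cells with and without the RORγtN275D mutation. They were taken by gene symbol, and all 9 were found among the 16244 genes of the table. The cells began as naive CD4+ T cells, with spleen as the tissue given in the labels. They were stimulated through CD3 and CD28 for 3 days under pathogenic Th17 conditions, which the design text gives as IL-6, IL-1β and IL-23, and to which the methods add TGF-β and blocking antibodies to IL-4 and IFN-γ. The methods give the study's WT mice as purchased C57BL/6 mice, which the resource list names C57BL/6NJ. Littermate controls are mentioned for the transfer experiments, and the source of the WT donors of these libraries is not stated. RORγtN275D cells came from CRISPR-Cas9 knockin mice on a C57BL/6 background that carry the changed residue in the ligand-binding domain of RORγt in all their tissues. The methods describe the study's mice in general as aged 6 to 12 weeks and of both sexes, matched between groups, whereas the zygosity of the donors of these libraries, their individual age and sex, and whether the 3 libraries of a genotype came from separate mice or cultures, are not given, so that p-values measure the spread between libraries, which may be technical.

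Chemokine receptors are G protein-coupled receptors that sit on the cell surface and turn a gradient of secreted chemokine into directed movement, mainly through Gi proteins, PI3Kγ and Rac. Each T cell subset carries its own set. CCR6, which binds CCL20, is the receptor by which Th17 cells are usually recognised, CCR7 and CXCR5 guide lymphocytes to lymph nodes and B cell follicles, CXCR4 retains cells in tissues that make CXCL12, and CCR2, CCR4, CCR8, CXCR3 and CXCR6 draw effector and memory cells into inflamed organs, skin or mucosa.

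Values are the authors' normalized reads per gene, 1 value for each of the 3 WT and 3 RORγtN275D libraries, from between 17659035 and 18510878 reads on genes per library. Fold changes are on the log2(normalized reads + 1) scale, which understates the change of low genes, and limma was run on the genes whose mean over both genotypes was 10 normalized reads or more. Defining T cell and Th17 transcripts (*Cd3d*, *Cd3e*, *Cd3g*, *Cd4*, *Il17a*, *Il17f*, *Il23r*) were all present, with a sum of 72424 to 76301 normalized reads in WT and 83863 to 84586 in RORγtN275D libraries. Most of that sum was *Il17a* and *Il17f*, which were higher in mutant cells, as was *Il23r*, at an adjusted p under 0.05 by limma. At the same threshold *Cd4* (log2 fold change -0.27) and *Cd3e* (-0.22) were lower, while *Cd3d* and *Cd3g* did not reach it. The gene totals do not show the edited codon, so the genotype labels could not be checked from them. WT replicate 3 differed from the other WT libraries by more than those differed from each other, with a mean chi-square of 5.13 and 5.68 times what counting alone gives against 1.86, and the values without it are given where they matter.

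All 9 receptors passed the filter on low values, in both genotypes taken alone. Of these, 4 rose in RORγtN275D Th17 cells (*Ccr2*, *Cxcr5*, *Ccr7* and *Ccr6*), 1 fell (*Cxcr4*) and 4 were not called (*Ccr4*, *Ccr8*, *Cxcr3* and *Cxcr6*), at an adjusted p under 0.05 by limma. Over all 11908 genes tested, 24.7% were called higher and 26.1% lower, so that about as many receptors were called as genes in general, 5 of 9 against 50.9%. The median log2 fold change of the 9 was 0.25, beside -0.0026 over all genes tested. Only *Ccr2* reached 2-fold, as did 2.73% of all genes in the higher direction, and none fell by 2-fold, against 0.857% of all genes. In each of the 5 called receptors the 3 libraries of one genotype lay outside the range of the other, which held for 57.7% of all genes tested (28.1% higher and 29.6% lower in mutant cells). An exact permutation test on a single receptor cannot give a two-sided p below 0.1 with 3 libraries against 3, and it gave 0.1 for each of these 5.

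**Figure D1:**
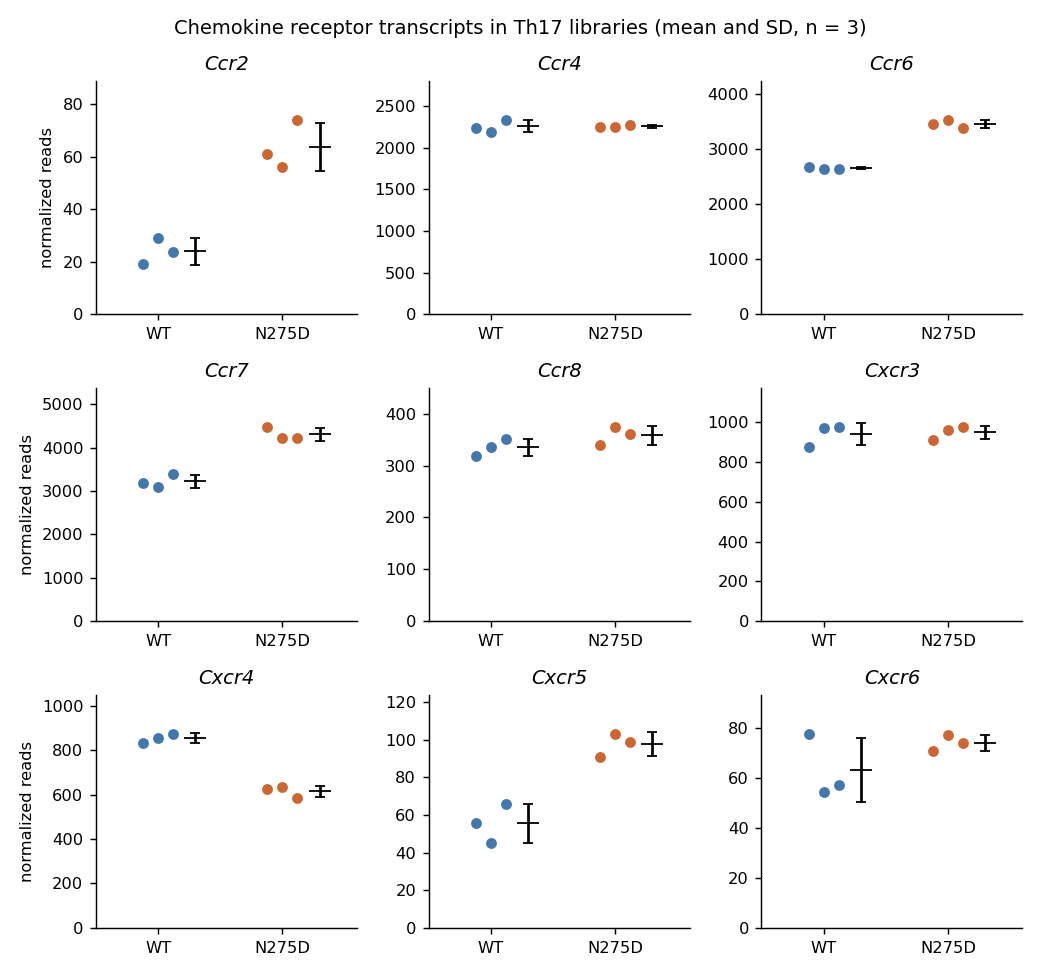
Normalized reads of each receptor (vertical axes from 0, one scale per panel) in the 3 WT and 3 N275D libraries, with the mean and SD beside the points. The libraries of the genotypes separate for *Ccr2*, *Ccr6*, *Ccr7*, *Cxcr4* and *Cxcr5*, and overlap for *Ccr4*, *Ccr8*, *Cxcr3* and *Cxcr6*.

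*Ccr6* (gene 12458, GRCm38 chromosome 17, 8236041 to 8258519) encodes the CCL20 receptor of Th17 cells and is a known target of RORγt. Its WT libraries held 2676, 2633 and 2637 normalized reads and its RORγtN275D libraries 3448, 3523 and 3379. Every mutant library was above every WT library, and the gap was many times the spread within a genotype. The means were 2649 ± 23.6 and 3450 ± 71.9 (SD, n = 3 each), a difference of 0.38 on the log2 scale (limma, SE 0.04, adjusted p = 5.02e-07). The RefSeq span of *Ccr6* overlaps that of a long noncoding RNA gene, *Gm33799*, whose reads were not separated here.

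*Ccr7* (gene 12775, chromosome 11, 99144199 to 99155077) encodes the receptor for CCL19 and CCL21 that brings naive and central memory T cells into lymph nodes. It had 3192, 3102 and 3396 normalized reads in the WT libraries and 4484, 4225 and 4220 in the mutant libraries. Again the genotypes did not overlap. The log2 fold change was 0.42 (limma, SE 0.04, adjusted p = 7.83e-07), from 3230 ± 150 in WT to 4310 ± 151 normalized reads in mutant cells (SD, n = 3 each). Of 4 transcripts of naive T cells, *S1pr1* (log2 fold change 1.04) and *Il7r* (1.34) were called higher, *Lef1* (-0.43) was called lower and *Tcf7* (0.0017) was not called. Over all genes tested, 24.7% were called higher and 26.1% lower. The sum of the 4 transcripts was 9413 to 10492 normalized reads in WT and 10527 to 10782 in mutant libraries, and its part in the result for *Ccr7* was not tested. In cultures sequenced in bulk, more cells of a type and more RNA per cell cannot be told apart.

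*Cxcr5* (gene 12145, chromosome 9, 44511787 to 44526444) encodes the CXCL13 receptor of B cells and follicular helper T cells. It was a low transcript, with 55.5, 45.4 and 65.8 normalized reads in the WT libraries and 90.8, 103 and 98.8 in the mutant libraries. All mutant libraries exceeded all WT libraries. The means were 55.6 ± 10.2 and 97.6 ± 6.32 (SD, n = 3 each), and the log2 fold change was 0.82 (limma, SE 0.14, adjusted p = 0.000209). An exon of *Cxcr5* overlaps one of *Bcl9l* on the opposite strand, and *Bcl9l* itself was not called (log2 fold change -0.12, adjusted p = 0.218 from limma). B cells carry *Cxcr5* together with *Ccr6*, *Ccr7* and *Cxcr4*. Of 6 B cell markers 5 were tested and 3 were called higher (*Cd79a*, *Pax5* and *Ebf1*), beside 24.7% of all genes tested. *Cd79b* (adjusted p = 0.0637 from limma) and *Cr2* (0.387) were not called. *Cd79a* was at 11.1 to 20.2 normalized reads in WT and 29.0 to 36.1 in mutant libraries, and *Ms4a1* at 0 to 1.01 and 3.99 to 9.88. The 6 markers summed to 1082 to 1111 in WT and 1585 to 1689 in mutant libraries, most of it from *Ebf1*, and none was at 0 in every library. The part of B lineage transcripts in the values of *Cxcr5*, *Ccr6* and *Ccr7* was not tested.

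*Ccr2* (gene 12772, chromosome 9, 124101918 to 124109140) encodes the CCL2 receptor of monocytes and of inflammatory T cells. It had the lowest level of the 9 and the largest change. The WT libraries held 19.2, 29.3 and 23.6 normalized reads and the mutant libraries 60.9, 56.2 and 74.1, with no overlap between the genotypes. The means were 24.0 ± 5.05 and 63.7 ± 9.27 (SD, n = 3 each), a difference of 1.38 on the log2 scale (limma, SE 0.19, 95% interval 0.98 to 1.79, adjusted p = 1.89e-05). The SD within WT was 1.03 times what counting reads alone would give, so that depth limits the precision of this gene, and the interval reaches below 2-fold. Under a pseudocount of 10 its log2 fold change was 1.12. Myeloid cells also carry *Ccr2*. Their 7 markers summed to 47.4 to 55.5 normalized reads in WT and 44.1 to 58.9 in mutant libraries, ranges that overlap. Of these markers, *S100a8* and *Fcgr1* had means of about 1 normalized read or less in both genotypes, *Lyz2* (4.66 and 7.97) and *Csf1r* (1.01 and 2.99) were below the filter with higher means in mutant cells, *Adgre1* was called lower (22.6 and 6.64) and *Cd14* higher (11.3 and 22.9), and none was at 0 in every library. The mutant mean of *Adgre1* was under the filter, so that it passed only through its WT libraries, and its call is not support for a direction. The sum thus holds members whose means differ in opposite directions, and the part of myeloid transcripts in the values of *Ccr2* was not tested. Gamma delta T cells carry *Ccr2* and *Ccr6*. *Sox13* and *Blk*, listed as their markers, were both called higher, beside 24.7% of all genes tested. They had a sum of 31.3 to 41.3 in WT and 58.3 to 65.9 in mutant libraries. *Blk* is also expressed in B cells, so that it does not mark gamma delta T cells alone. *Trdc* was not analysed here, and the part of gamma delta T cells in the results was not tested.

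*Cxcr4* (gene 12767, chromosome 1, 128588199 to 128592299) encodes the CXCL12 receptor and was the one receptor that fell. It had 834, 855 and 875 normalized reads in the WT libraries and 624, 634 and 585 in the mutant libraries. The highest mutant library was well below the lowest WT library. The means were 855 ± 20.8 and 614 ± 26.1 (SD, n = 3 each), and the log2 fold change was -0.48 (limma, SE 0.05, adjusted p = 2.38e-06).

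*Ccr4* (gene 12773, chromosome 9, 114490316 to 114505476), the receptor for CCL17 and CCL22 on Th2, Th17 and skin-homing cells, had 2239, 2190 and 2332 normalized reads in WT and 2246, 2245 and 2272 in mutant libraries. The mutant values lay within the WT range, and the 95% interval of the log2 fold change was -0.085 to 0.087 (adjusted p = 0.985 from limma). *Cxcr3* (gene 12766, chromosome X, 101731535 to 101734147), the Th1 receptor for CXCL9 and CXCL10, had 877, 971 and 977 in WT and 911, 961 and 976 in mutant libraries. Its interval was -0.10 to 0.13 (adjusted p = 0.867 from limma). Neither interval reaches the 0.38 of *Ccr6*.

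*Ccr8* (gene 12776, chromosome 9, 120092133 to 120094906), the CCL1 receptor of Th2 and regulatory T cells, had 318, 337 and 352 normalized reads in WT and 339, 375 and 360 in mutant libraries. The ranges overlapped, and the log2 fold change was 0.09 (95% interval -0.054 to 0.24, adjusted p = 0.275 from limma). *Cxcr6* (gene 80901, chromosome 9, 123806477 to 123811754), the CXCL16 receptor of tissue-resident T cells, had 77.7, 54.5 and 57.0 in WT and 70.9, 77.2 and 74.1 in mutant libraries. Its WT replicate 1 lay above all the mutant libraries and the other WT libraries lay below them. The log2 fold change of *Cxcr6* was 0.25 (95% interval -0.069 to 0.56, adjusted p = 0.180 from limma), an interval too wide to set it apart from *Ccr6* or from no change. Without WT replicate 1 it was 0.40 and was called (adjusted p = 0.0343 from limma). Markers of regulatory T cells, which carry *Ccr8* and *Ccr4*, summed to 1077 to 1165 normalized reads in WT and 2948 to 3154 in mutant libraries. Most of the rise came from the activation receptor *Tnfrsf9*. *Foxp3* had a lower mean in mutant cells, 38.2 against 50.9 in WT, with overlapping libraries. It was not called (log2 fold change -0.40, adjusted p = 0.0755 from limma), nor was *Ikzf2* (0.16). Markers of CD8 T and NK cells, which carry *Cxcr3* and *Cxcr6*, summed to 182 to 195 in WT and 251 to 281 in mutant libraries. In this sum *Cd8b1* (means 98.9 in WT and 148 in mutant cells) and *Eomes* (56.4 and 91.7) were called higher, beside 24.7% of all genes tested. *Cd8a* (32.6 and 27.6) was not called, *Klrb1c* (1.01 and 0) was below the filter and *Ncr1* was not analysed here. The part of regulatory T cell or of CD8 T and NK cell transcripts in the values of *Ccr8*, *Ccr4*, *Cxcr3* and *Cxcr6* was not tested.

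**Figure D2:**
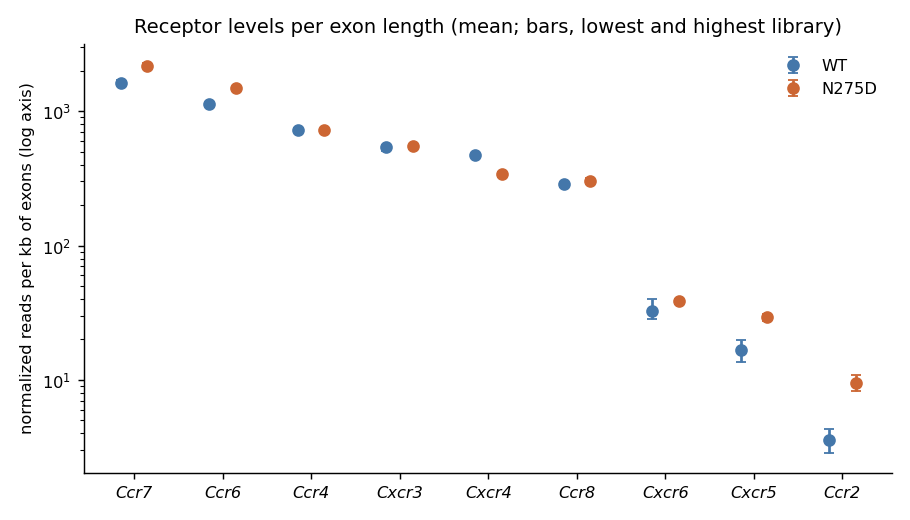
Normalized reads per kb of exons (log axis) for each receptor in WT and N275D libraries, as the mean with bars from the lowest to the highest of 3 libraries. *Ccr7* and *Ccr6* were the most abundant receptors and *Ccr2* the least in both genotypes.

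Per kb of annotated exons, the order of the receptors was the same in both genotypes, running from *Ccr7* through *Ccr6*, *Ccr4*, *Cxcr3*, *Cxcr4*, *Ccr8*, *Cxcr6* and *Cxcr5* to *Ccr2*. It did not change when the longest coding transcript was used as the length. *Ccr7* had 1633 ± 76.1 normalized reads per kb in WT and 2179 ± 76.4 in mutant cells, *Ccr6* 1142 ± 10.2 and 1487 ± 31.0, and *Ccr2* 3.55 ± 0.75 and 9.43 ± 1.37 (SD, n = 3 each). No 2 neighbours in the order had overlapping libraries in either genotype. The closest were *Cxcr3* and *Cxcr4* in WT, 1.15-fold apart, and *Cxcr4* and *Ccr8* in mutant cells, 1.11-fold apart. The step from *Ccr8* to *Cxcr6* was the widest, 8.74-fold in WT and 7.95-fold in mutant cells. Above it stand 6 receptors with WT means of 286 to 1633 normalized reads per kb and below it 3 with WT means of 3.55 to 32.7.

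The normalized reads of the 9 receptors added up to 10407 ± 269 in WT and 12172 ± 121 in RORγtN275D libraries (SD, n = 3 each), a sum carried by the 3 receptors *Ccr7*, *Ccr6* and *Ccr4*. Of that sum, *Ccr7* made up 31.0% ± 0.67 in WT and 35.4% ± 1.00 in mutant cells, *Ccr6* 25.5% ± 0.75 and 28.3% ± 0.46, and *Cxcr4* 8.21% ± 0.14 and 5.05% ± 0.17 (SD, n = 3 each). *Ccr4*, whose own level was not called, went from 21.7% ± 0.19 to 18.5% ± 0.31 of the sum.

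No promoter window of RefSeq (GRCm38.p6) was available for *Ccr7* and *Cxcr5*. For the other 7 of the 9 receptors, windows ran from 250 bases before to 50 after a transcript start, with 2 for *Ccr6*. They were searched on both strands for AGGTCA, the core motif bound by ROR proteins, for ACGTG and GCGTG, the core of the hypoxia response element, and for TCACAC, the core bound by T-box factors such as T-bet. Of all 32851 windows, 16.3% held AGGTCA, 19.6% ACGTG, 32.4% GCGTG and 14.5% TCACAC. Matches were found in windows of *Ccr6*, *Ccr8*, *Cxcr3* and *Cxcr4*, and none in those of *Ccr2*, *Ccr4* and *Cxcr6*. The share of all windows that hold any of these motifs was not computed, so having a match is not given as a trait of these receptors. Both *Ccr6* windows are shown as those of the established RORγt target, *Cxcr4* as the receptor that fell and *Cxcr3* as that of a T-bet target, 5′ to 3′ on the strand of the gene with matches in capitals:
*Ccr6*, first start, chr17:8235793-8236092, + strand: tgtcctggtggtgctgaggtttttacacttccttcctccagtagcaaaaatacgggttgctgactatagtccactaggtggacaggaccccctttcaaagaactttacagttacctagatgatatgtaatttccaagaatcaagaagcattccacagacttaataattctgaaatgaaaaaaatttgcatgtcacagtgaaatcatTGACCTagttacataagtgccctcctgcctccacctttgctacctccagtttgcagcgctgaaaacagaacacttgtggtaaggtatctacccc
*Ccr6*, second start, chr17:8242276-8242575, + strand: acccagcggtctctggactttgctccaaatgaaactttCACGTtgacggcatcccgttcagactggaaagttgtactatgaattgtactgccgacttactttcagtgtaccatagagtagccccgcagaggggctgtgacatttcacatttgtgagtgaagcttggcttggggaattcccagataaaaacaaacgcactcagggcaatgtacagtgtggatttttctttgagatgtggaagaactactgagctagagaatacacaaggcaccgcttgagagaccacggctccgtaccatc
*Cxcr4*, chr1:128592250-128592549, - strand: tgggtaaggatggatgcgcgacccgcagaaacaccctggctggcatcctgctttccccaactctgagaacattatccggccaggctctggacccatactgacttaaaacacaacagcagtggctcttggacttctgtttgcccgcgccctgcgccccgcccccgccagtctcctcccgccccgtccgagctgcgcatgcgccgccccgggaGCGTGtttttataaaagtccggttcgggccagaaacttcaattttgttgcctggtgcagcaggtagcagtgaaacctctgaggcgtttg
*Cxcr3*, chrX:101734098-101734397, - strand: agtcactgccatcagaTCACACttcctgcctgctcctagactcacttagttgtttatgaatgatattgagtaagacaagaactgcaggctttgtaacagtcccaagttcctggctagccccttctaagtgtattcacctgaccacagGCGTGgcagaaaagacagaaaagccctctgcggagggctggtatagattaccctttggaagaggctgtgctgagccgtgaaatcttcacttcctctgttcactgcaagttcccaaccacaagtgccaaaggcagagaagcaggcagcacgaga

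In the first *Ccr6* window the capitals mark AGGTCA read on the opposite strand. As written on the strand of the gene, they begin at -44 from the start. In the second window they mark ACGTG on the opposite strand and begin, as written, at -212. The *Cxcr4* window has GCGTG at -39, and that of *Cxcr3* has TCACAC at -234 and GCGTG at -103. These matches are descriptions of the sequence and not binding sites, and the hypoxia core in either form stood in 43.8% of all windows.

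Transcripts of the factors known to act at these genes were also compared. *Rora*, encoding RORα, which acts at *Ccr6*, was higher in mutant cells (log2 fold change 0.26, adjusted p = 0.000338 from limma). *Tbx21*, encoding T-bet and known to act at *Cxcr3*, fell from 565 ± 10.2 in WT to 318 ± 23.0 normalized reads in mutant cells (SD, n = 3 each), a difference of -0.83 on the log2 scale (adjusted p = 5.19e-08 from limma), while *Cxcr3* itself was not called. *Gata3*, known at *Ccr4*, rose by 0.59 on the log2 scale (adjusted p = 0.000193 from limma), while *Ccr4* was not called. *Foxo1*, known at *Ccr7*, rose by 0.40 (adjusted p = 5.89e-06 from limma), and the other factor listed for *Ccr7*, *Klf2*, had 17.0 ± 1.88 and 21.3 ± 2.21 normalized reads (SD, n = 3 each) and was not called. *Bcl6*, known at *Cxcr5*, was not called (0.02, adjusted p = 0.797 from limma). *Hif1a*, whose product is known to act at *Cxcr4*, rose by 0.78 on the log2 scale (adjusted p = 4.00e-10 from limma), whereas *Cxcr4* fell.

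**Figure D3:**
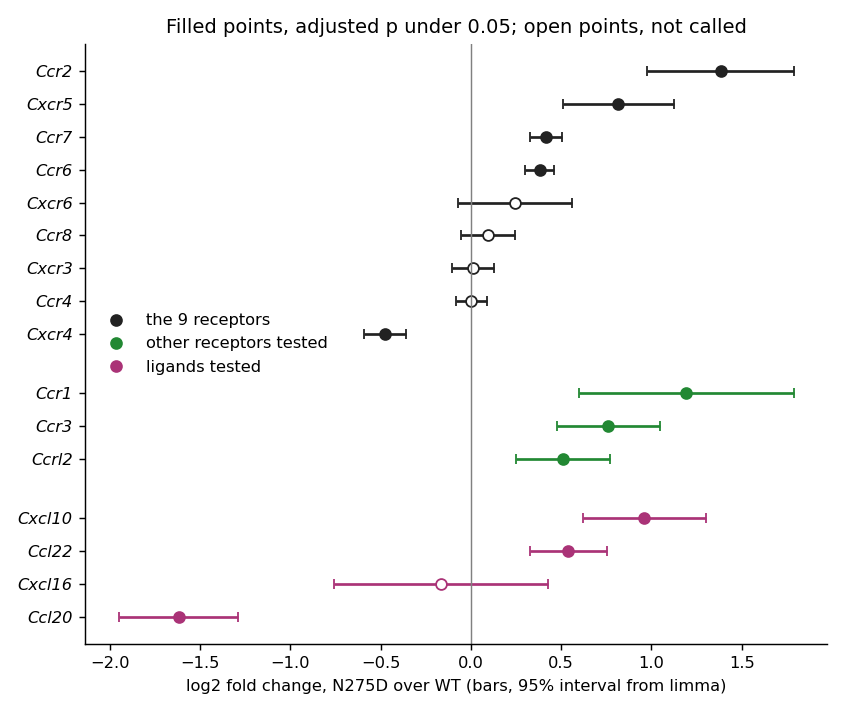
Log2 fold changes, N275D over WT, with 95% intervals from limma, for the 9 receptors (black), the other chemokine receptors tested (green) and the ligands tested (purple). Filled points have an adjusted p under 0.05, and the ligand *Ccl20* lies at -1.62, opposite to its receptor *Ccr6*.

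The ligands of these receptors were mostly low or absent, as 11 of 16 listed were in the table and 4 passed the filter. *Ccl20*, the ligand of CCR6, had 95.9, 115 and 129 normalized reads in the WT libraries and 41.9, 36.1 and 30.6 in the mutant libraries. Its log2 fold change was -1.62 (limma, SE 0.16, adjusted p = 3.82e-07), so that receptor and ligand transcripts moved in opposite directions. *Ccl22*, a ligand of CCR4, rose from 181 ± 28.5 in WT to 261 ± 10.9 normalized reads in mutant cells (SD, n = 3 each), a difference of 0.54 on the log2 scale (adjusted p = 0.000313 from limma). *Cxcl10*, a ligand of CXCR3, rose from 57.6 ± 14.2 to 111 ± 3.09 (SD, n = 3 each), a difference of 0.96 on the log2 scale (adjusted p = 0.000118 from limma). The receptors of these last 2 ligands were not called. *Cxcl16*, the ligand of CXCR6, was not called (adjusted p = 0.646 from limma). *Ccl1*, the ligand of CCR8, was below the filter, with 21.2, 16.1 and 7.86 normalized reads in WT and 0.998, 1.00 and 0 in mutant libraries, without overlap.

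Of 15 other chemokine receptors listed, 10 were in the table and 3 passed the filter, and all of these 3 were called higher in RORγtN275D cells, beside 24.7% of all genes tested. *Ccr3*, the eotaxin receptor, rose by 0.76 on the log2 scale from 49.3 ± 4.96 normalized reads (SD, n = 3, adjusted p = 0.000206 from limma), and the chemerin-binding receptor *Ccrl2* rose by 0.51 (adjusted p = 0.00267 from limma). *Ccr1* had 11.1, 9.08 and 6.88 normalized reads in WT and 22.0, 20.1 and 22.7 in mutant libraries, a log2 fold change of 1.19 (adjusted p = 0.00218 from limma). Its WT mean of 9.02 was itself under the filter, so that it passed only through its mutant libraries, and its call is not support for a direction. The other 7 receptors in the table, *Cx3cr1*, *Ccr10*, *Xcr1*, *Cxcr1*, *Cxcr2*, *Ackr3* and *Cmklr1*, had means of at most 7.01 normalized reads in either genotype and were not tested. Of these, *Cxcr1* alone did not overlap between the genotypes, with means of 1.34 and 5.98.

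*Ccr2* and *Cxcr6* lie in the receptor cluster of chromosome 9, where 8 genes were tested, 4 of them called higher (*Ccr1*, *Ccr2*, *Ccr3* and *Fyco1*) and 1 lower (*Limd1*), beside 24.7% and 26.1% of all genes tested. *Ccr1*, *Ccr3* and *Ccr2* follow each other within 147 kb, from 123962126 to 124109140, with log2 fold changes of 1.19, 0.76 and 1.38, of which that of *Ccr1* is of a gene that passed the filter only through its mutant libraries. *Cxcr6* lies further toward the centromere and inside the span of *Fyco1*, a gene of vesicle transport on the opposite strand, with which it shares no annotated exon. *Fyco1* rose from 312 ± 14.3 in WT to 495 ± 12.8 normalized reads in mutant cells (SD, n = 3 each), a difference of 0.67 on the log2 scale (adjusted p = 4.17e-07 from limma), and the part of its reads in the value of *Cxcr6* was not tested. Beyond *Fyco1*, *Lztfl1* (0.18) and *Sacm1l* (0.03) were not called, and *Limd1* was lower (-0.14, adjusted p = 0.0128 from limma). *Ccrl2* was listed with the cluster but lies 12.8 Mb away.

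**Figure D4:**
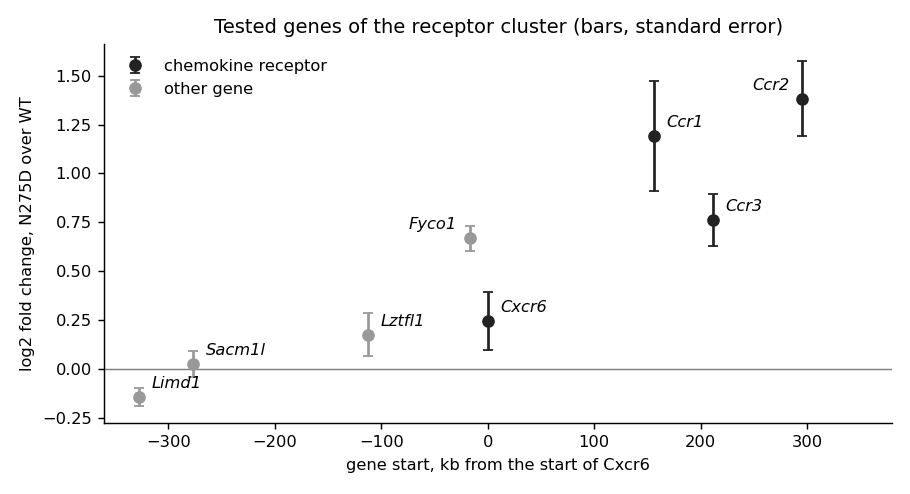
Log2 fold changes, N275D over WT, with standard errors, of 8 tested genes of the chromosome 9 cluster by distance of the gene start from that of *Cxcr6* in kb. The receptors *Ccr1*, *Ccr3* and *Ccr2* lie between 0.76 and 1.38, and the genes at the other end, *Limd1* and *Sacm1l*, near 0.

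Downstream of the receptors, 38 of the 39 listed signalling genes were in the table and 36 were tested, of which 6 were called higher and 13 lower, with a median log2 fold change of -0.034. All genes tested gave 24.7% and 26.1% in these directions. Of 7 G protein subunits 2 were called lower and none higher. Among receptor kinases and arrestins, *Arrb1*, encoding a β-arrestin, which uncouples and internalises activated receptors, rose from 1345 ± 30.8 in WT to 3436 ± 101 normalized reads in mutant cells (SD, n = 3 each). The change of 1.35 on the log2 scale (limma, SE 0.04, adjusted p = 5.90e-13) was the largest in the list. The other β-arrestin gene listed, *Arrb2*, had means of 1427 in WT and 1331 in mutant cells. It was not called (log2 fold change -0.10, adjusted p = 0.137 from limma). *Pik3cg*, which encodes the catalytic subunit of PI3Kγ, rose from 884 ± 37.5 in WT to 1838 ± 98.1 normalized reads in mutant cells (SD, n = 3 each), a difference of 1.05 on the log2 scale (adjusted p = 1.20e-10 from limma). *Arrb1* and *Pik3cg* were the only 2 signalling genes past 2-fold. *Rgs16*, which shortens G protein signals, fell most, from 1372 ± 44.6 in WT to 943 ± 72.2 normalized reads in mutant cells (SD, n = 3 each, log2 fold change -0.54, adjusted p = 8.77e-07 from limma). *Dock8*, an activator of Cdc42 needed for T cells to move through dense tissue, was next (-0.37, adjusted p = 1.08e-06 from limma). In all, 3 of 7 regulators of G protein signalling tested were called lower and 1 higher, and of 17 PI3K, Rac and actin genes 6 were called lower and 4 higher.

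The genes whose log2 levels over the 6 libraries were most like those of *Ccr2* were *Syt5*, *Abtb1* and *Lzts1*, with Pearson's r of 0.998, 0.997 and 0.997. For *Cxcr4* they were *Myd88*, *Nrf1* and *Npm3*, with r of 1.00, 0.999 and 0.998. These values describe 6 libraries that share the same genotype difference, and with 11908 genes to choose from such values are given as a description only.

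**Figure D5:**
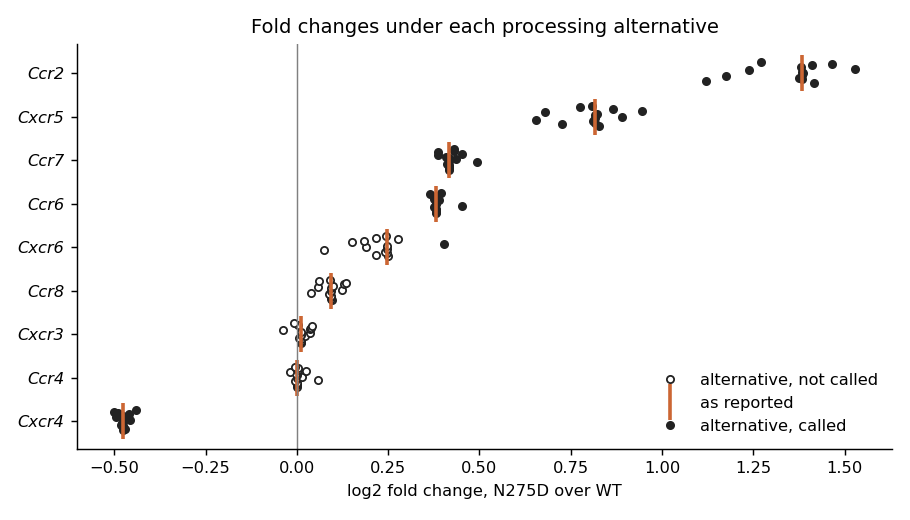
Log2 fold changes of the 9 receptors, N275D over WT, under each alternative way of processing the data (points; filled when called) beside the reported value (vertical bar). *Ccr2*, *Cxcr5*, *Ccr7*, *Ccr6* and *Cxcr4* keep their direction and call in every alternative in which they were tested, and *Ccr4* and *Cxcr3* lie on both sides of 0.

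The 5 calls held in each alternative in which the gene was tested, with log2 fold changes of 1.12 to 1.53 for *Ccr2*, 0.66 to 0.94 for *Cxcr5*, 0.39 to 0.49 for *Ccr7*, 0.37 to 0.45 for *Ccr6* and -0.50 to -0.44 for *Cxcr4*. The highest adjusted p among them was 0.0053, for *Cxcr5*. Without WT replicate 3, 4 receptors were called higher and 1 lower, as with it. *Ccr4* and *Ccr8* were called in none of the alternatives, nor was *Cxcr3*.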

How the data were processed

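Genotype and replicate number of the 3 WT and 3 RORγtN275D RNA-seq libraries were read from the labels. Per the methods, the authors used STAR to map trimmed reads to mm10 and featureCounts to count them per gene. Tool versions and the treatment of strand and shared reads in counting are not given in the sources used here. The labels name poly-A selection with a directional kit and the methods a DNBSEQ strand-specific kit. The signal that the authors deposited is reads per gene scaled by 1 factor per library, and 100% of its values are whole multiples, within 1e-06, of the smallest value above 0 of their library. Dividing by that value gave the depth quoted. The authors' own fold changes, q-values and group averages were not used.

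log2(normalized reads + 1) was fitted with limma (version 3.58.1, R 4.3.3) with a trended prior, without a block, for 11908 genes whose mean reached 10, and p-values were adjusted over all of them by the Benjamini-Hochberg method. A call is an adjusted p under 0.05. The authors used DESeq2, which models reads and was not applied here to scaled values. The fit was tested on simulated data. The receptors and all gene lists were chosen with earlier results of these data known. Named genes are the 9 receptors, each other receptor or ligand that passed the filter, every listed factor, and for signalling genes those called at 2-fold and the 2 largest called changes in each direction, and the 3 most alike genes of 2 receptors. Other genes were named after their values were seen. A few listed genes are not reported here, and list counts and sums are without them. Positions are from RefSeq GRCm38.p6, which is the build mm10, by gene number, for 16135 of 16244 genes. Exon lengths and overlaps are from GENCODE M21. Same-numbered libraries did not deviate together (r = -0.0455, 0.0407 and -0.0828 across genes).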

Additional observations from a re-analysis of the deposited data

How the results depend on the processing

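The count of receptors called higher was 4 to 5 when each library was left out in turn, 5 being without WT replicate 1, and the count called lower was 1 throughout. With genes of a mean of at least 100 only, 2 receptors were called higher, because *Ccr2* and *Cxcr5* were then not tested. *Cxcr6*, not called in the reported fit, was not tested either. With the replicate number as a block, 4 receptors were called higher and 1 lower, and 428 genes at 2-fold against 427, and no receptor changed its call. The replicate numbers are not known to mark shared mice or days. The count of genes at 2-fold was 259 with a pseudocount of 10, 703 with all genes with a mean above 0 and 162 with a mean of at least 100, and lay between 413 and 456 with 1 library left out. The other counts of genes stayed within 1.5 times the reported ones.

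Genes that were not called changed sign in some alternatives and stayed uncalled. *Ccr4* was at -0.0048 on the log2 scale under TMM scaling and between -0.0192 and 0.0261 with 1 library left out, and *Cxcr3* between -0.038 and 0.0416. *Bcl6* was at -0.0231 under quantile scaling and between -0.0232 and 0.0568 with 1 library left out. *Sacm1l* was at -0.0426 with library weights and between -0.0608 and 0.0825 with 1 library left out. *Limd1* lost its call under quantile scaling (adjusted p = 0.0689 from limma) and without N275D replicate 2 (0.0673), and *Lztfl1* was called without WT replicate 1 (adjusted p = 0.0253 from limma). The cause was not tested. The other receptors, ligands, factors and cluster genes tested, with *Arrb1*, *Pik3cg*, *Rgs16* and *Dock8*, kept direction and call in 315 values under the alternatives, against 9 that did not. Markers and the other signalling genes were not run under the alternatives. The median of all genes moved by less than 0.1 on the log2 scale under either scaling. The TMM factors were computed without weights. edgeR and DESeq2 were planned as alternatives and were not run, since the deposited values are scaled reads whose step lies close to 1. Depth limits *Ccr2*, *Cxcr5* and *Cxcr6*, with 19 to 103 reads per library.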
